A study of Mus musculus with 4 samples.

Results

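The proteins of the mitochondrial ribosome that carry Mrpl names (large subunit) and Mrps names (small subunit) are encoded in the nucleus. They were taken as all protein-coding genes of the GENCODE M21 mouse annotation whose symbol is Mrpl or Mrps followed by a digit, with pseudogene names left out. This gave 78 genes, 49 named Mrpl and 29 named Mrps, among the 37311 gene identifiers of the count files. Mrpl33 had no identifier in the files, so 77 genes had counts. All 4 libraries came from J1 mouse embryonic stem cells (129S4/SvJae) in which Eif4a3 was knocked down with 2 short hairpins, sheIF4a3-2 and sheIF4a3-3. Eif4a3 encodes an RNA helicase of the exon junction complex, which is left on spliced mRNA. The cells grew on gelatin without feeders, in serum with leukaemia inhibitory factor, were selected with puromycin at 1 µg/mL for 3 days, and were harvested at day 4.5. Every culture received cycloheximide at 0.1 mg/mL for 1 min. Ribosome-protected fragments (RPF), the pieces of mRNA covered by cytosolic ribosomes, were sequenced from 2 biological replicates, and total RNA from 2. No library of cells lacking the hairpins was analysed here, so the comparison is between RPF and total RNA within knockdown cells and cannot show an effect of the knockdown. Which hairpin each replicate received is not given in the sources used here.

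Mitochondria translate the few proteins of their own genome, all of them subunits of the respiratory chain and of ATP synthase, on ribosomes whose RNA is mitochondrial and whose proteins are made in the cytosol and imported. The large subunit joins amino acids and releases the growing chain through its tunnel into the inner membrane, and the small subunit reads the mRNA. Some of these proteins descend from bacterial ribosomal proteins and others were added in the line leading to mitochondria, and loss of many of them in humans causes disease of the respiratory chain. RPF of these genes therefore report translation of their mRNAs by the cytosolic ribosome, not translation inside mitochondria.

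Depth was 9434987 and 7615277 gene counts for RPF and 8969965 and 8218020 gene counts for total RNA. A gene read 0 times could still have had up to 3 counts, a limit of 0.318 and 0.394 CPM (counts scaled to the library's size) for RPF and of 0.334 and 0.365 CPM for total RNA. These limits cover counting error only. Eif4a3 itself had 1640 and 1325 RPF counts, against 1229 and 975 counts of total RNA, so the targeted gene was still read in all libraries; with no control libraries it does not check the knockdown. All 8 embryonic stem cell markers had at least 10 CPM of total RNA, with a summed level of 5786 to 6222 CPM in RPF and 3769 to 4154 CPM in total RNA. The summed level of 6 fibroblast markers was 15.2 to 18.6 CPM in RPF and 10.7 to 10.8 CPM in total RNA, with 1 of the 6 at 0 in every library. Summed levels of 5 trophectoderm markers were 8.92 to 10.4 CPM in RPF and 6.17 to 7.53 CPM in total RNA. Those of 5 primitive endoderm markers were 33.0 to 36.8 CPM in RPF and 19.8 to 26.7 CPM in total RNA, and those of 5 mesoderm and neuroectoderm markers were 53.7 to 65.0 CPM in RPF and 40.4 to 41.8 CPM in total RNA. In bulk libraries, fewer cells of a type and less RNA per cell cannot be told apart.

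Mitochondrial ribosomal protein genes mostly had more RPF than total RNA. Of the 76 genes that passed the filter on low counts, 51 were higher in RPF at an adjusted p under 0.05 (edgeR quasi-likelihood test, Benjamini-Hochberg over 13809 genes), none was lower and 25 did not pass. At an unadjusted p under 0.05 the count of lower genes was also 0, as it was by DESeq2 and by limma-voom at the adjusted threshold. Over all tested genes, 20.5% were higher (2835 genes) and 21.2% were lower (2930 genes). The median log2 ratio of RPF to total RNA, called the ratio from here on, was 0.75 over the 76 genes and -0.02 over all tested genes. Ratios ran from -0.59 to 1.55, and 68 of the 76 were above 0, against 6758 of all 13809. Of the 51 higher genes, 21 were at least 2-fold higher. Among all tested genes this was so in 1299 of the 2835 higher ones, so the members did not stand out in this respect. Both RPF libraries lay above both total RNA libraries in CPM in 64 of the 76 genes, below them in 4, and overlapped with them in 8. Over all 13809 tested genes, both RPF libraries lay above in 4823 (34.9%), below in 5232, and overlapped in 3754. The ratio is relative, because the libraries were scaled to each other by trimmed mean of M-values (TMM). With the library size as the only scaling, the median of all genes moved by -0.43, all genes split into 1223 higher and 4961 lower, and the mitochondrial ribosomal protein genes into 24 higher and 6 lower. Their median then was 0.31, which is 0.77 above the median of all genes, against 0.77 above it with TMM. Without total RNA replicate 2, 1720 genes in all were higher and 1857 were lower, and 34 of the mitochondrial ribosomal protein genes were higher.

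**Figure D1:**
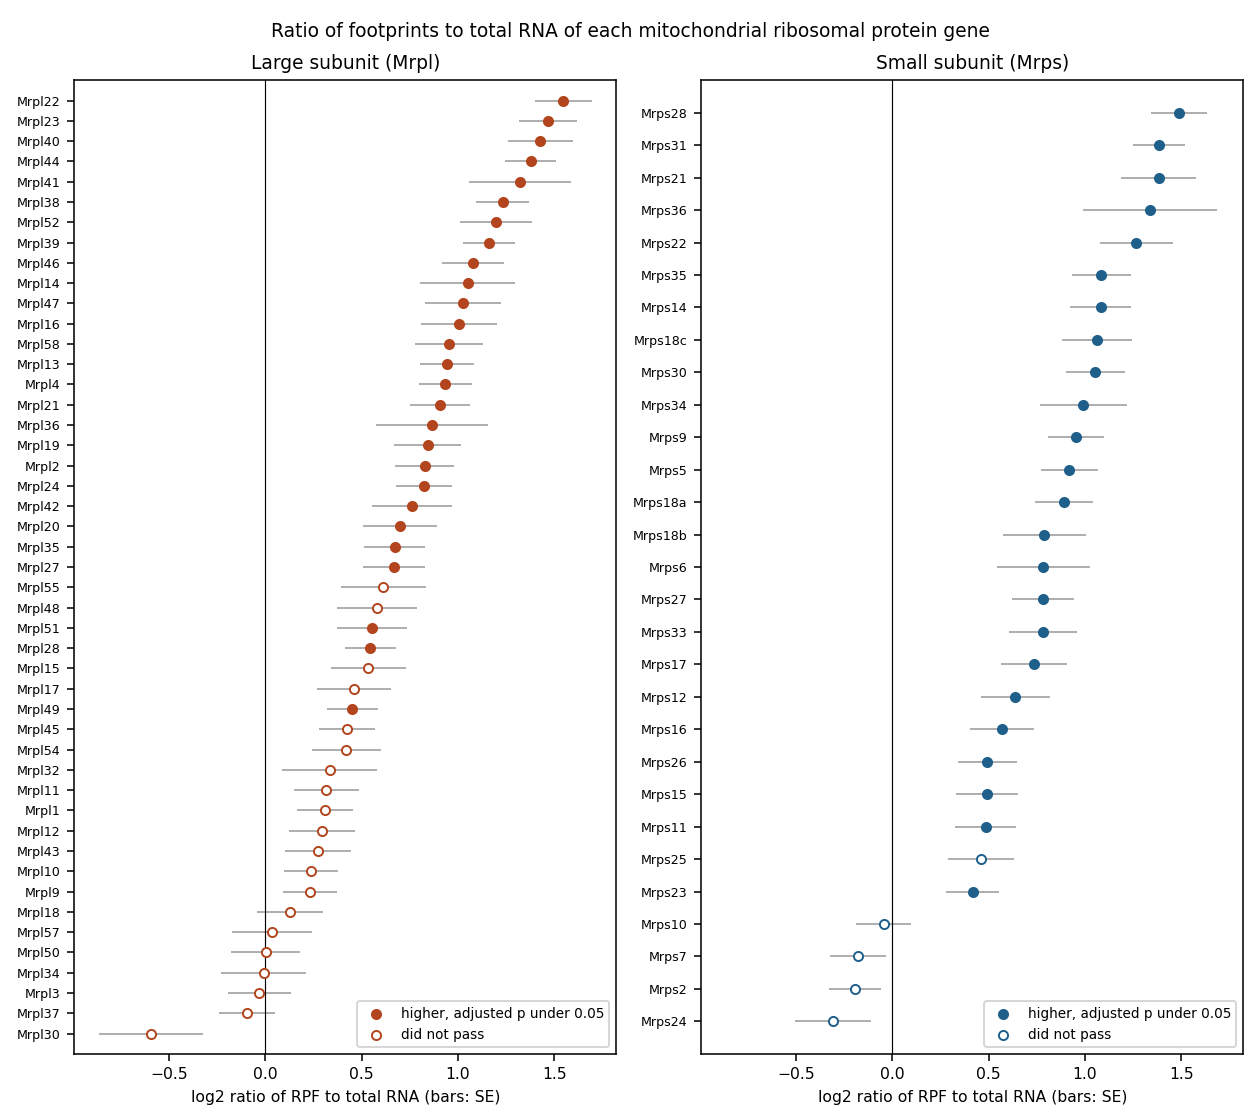
Log2 ratio of RPF to total RNA (x axis) of the 76 tested genes, large subunit left and small subunit right, sorted by ratio; points are edgeR estimates, bars are 1 standard error, and filled points passed as higher at an adjusted p under 0.05. The 51 filled points lie to the right of 0, and the lowest gene, Mrpl30, lies at -0.59.

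The levels behind these ratios were moderate and close between replicates. Over the 76 genes the median was 58.4 CPM in RPF and 40.6 CPM in total RNA (means of 2 libraries). The median log2 difference between replicates 1 and 2 was 0.20 in RPF and 0.13 in total RNA, and no gene differed by 2-fold between replicates of either kind. The largest differences between RPF replicates, on the log2 scale, were 0.82 for Mrpl36, 0.82 for Mrpl30 and 0.79 for Mrps36. Across the 76 genes the ratio of the replicate 1 libraries and that of the replicate 2 libraries had a Pearson r of 0.85 (Spearman rho 0.86), and the crossed pairs 0.74; genes of one library share its depth and scaling, so these values describe the libraries.

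**Figure D2:**
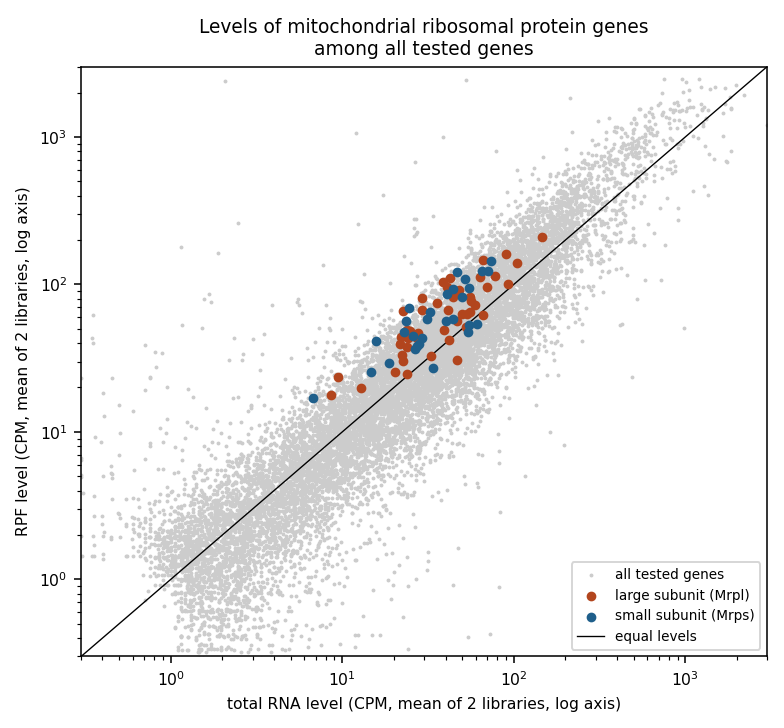
RPF level (y axis, log scale) against total RNA level (x axis, log scale) in TMM-normalised CPM, each the mean of 2 libraries; grey points are all tested genes, coloured points the 47 large and 29 small subunit genes, and the line marks equal levels. Of the 76 coloured points, 68 have a ratio above 0.

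In the large subunit, 27 of 47 tested genes were higher and 20 did not pass, with a median ratio of 0.67. Mrpl22, a protein of the wall of the exit tunnel, had 524 and 440 RPF counts, against 229 and 220 counts of total RNA. In normalised terms these were 67.8 and 64.2 CPM in RPF and 22.4 and 22.7 CPM in total RNA, a ratio of 1.55 ± 0.15 (SE, adjusted p = 0.000776, edgeR). Mrpl23, which sits at the tunnel's exit, had 84.3 and 76.4 CPM in RPF and 31.0 and 27.1 CPM in total RNA, a ratio of 1.47 ± 0.15. Both RPF libraries lay well above both total RNA libraries in each of these genes. Mrpl40, one of the proteins added in mitochondria, had 115 and 91.7 CPM in RPF and 41.5 and 35.4 CPM in total RNA, a ratio of 1.43 ± 0.17. Mrpl44, which carries a fold related to RNase III, had 112 and 108 CPM in RPF and 43.5 and 41.3 CPM in total RNA, with a ratio of 1.38 ± 0.13. Mrpl41 was read least of the leading genes, at 28.3 and 19.0 CPM in RPF and 8.81 and 10.1 CPM in total RNA, and its ratio of 1.32 carried an SE of 0.27. Mrpl38 of the central protuberance followed at 1.23 ± 0.14, from 90.5 and 102 CPM in RPF and 40.9 and 41.0 CPM in total RNA. Mrpl52 came next at 1.2 ± 0.19, from 77.7 and 56.7 CPM in RPF and 29.7 and 28.9 CPM in total RNA. The adjusted p of these 7 genes lay between 0.000776 and 0.00783 (edgeR), and none of them had overlapping groups.

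In the small subunit, 24 of 29 tested genes were higher and 5 did not pass, with a median ratio of 0.78. Mrps28, the counterpart of bacterial ribosomal protein bS1, led with 550 and 454 RPF counts, against 256 and 231 counts of total RNA. That is 71.1 and 66.2 CPM in RPF and 25.1 and 23.8 CPM in total RNA, a ratio of 1.49 ± 0.15 (SE, adjusted p = 0.000816, edgeR). Mrps31, a protein specific to mitochondria that was first described as an autoantigen in diabetes, had 121 CPM in each RPF library and 48.5 and 44.3 CPM in total RNA, a ratio of 1.38 ± 0.13. Mrps21, the counterpart of a bacterial protein, had 44.7 and 37.3 CPM in RPF and 17.1 and 14.3 CPM in total RNA, a ratio of 1.38 ± 0.19. In all of these the groups were separate. Mrps36 had 168 and 85 RPF counts, against 81 and 54 counts of total RNA, and its ratio of 1.34 carried the widest error of the small subunit (SE 0.35, adjusted p = 0.0202, edgeR). Despite its name, its protein is now known as KGD4, a part of the 2-oxoglutarate dehydrogenase complex of the citric acid cycle and not of the ribosome. Mrps22, mutated in a human respiratory chain disease, had 64.3 and 49.0 CPM in RPF and 21.9 and 25.2 CPM in total RNA, a ratio of 1.27 ± 0.19. Mrps35 had 103 and 83.8 CPM in RPF and 44.9 and 43.0 CPM in total RNA. Mrps14 had 95.0 and 77.6 CPM in RPF and 42.8 and 38.8 CPM in total RNA, and both genes had a ratio of 1.08.

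The genes with the lowest ratios lay near or below 0. Mrpl30, the counterpart of bacterial uL30, stood lowest, with 305 and 152 RPF counts, against 519 and 410 counts of total RNA. Its levels were 39.4 and 22.2 CPM in RPF and 50.8 and 42.3 CPM in total RNA, and both RPF libraries lay below both total RNA libraries. Its ratio of -0.59 ± 0.27 did not pass (adjusted p = 0.118, edgeR), but without RPF replicate 1 it was -1.06 and passed as lower (adjusted p = 0.000124, edgeR); over all alternatives the adjusted p ran from 4.68e-06 to 0.534. Mrps24, the counterpart of bacterial uS3 at the mRNA entry, had 30.4 and 24.1 CPM in RPF and 37.0 and 30.4 CPM in total RNA, a ratio of -0.31 ± 0.20 that did not pass (adjusted p = 0.244, edgeR). Mrps2 had 53.4 and 53.7 CPM in RPF and 63.4 and 59.0 CPM in total RNA, a ratio of -0.19. Mrps7 had 48.2 and 47.2 CPM in RPF and 57.5 and 50.6 CPM in total RNA, a ratio of -0.18. These were the 4 genes in which both RPF libraries lay below both total RNA libraries. Mrps10 (-0.04), Mrpl37 (-0.09), Mrpl3 (-0.03) and Mrpl34 (-0.01) also had ratios below 0, with overlapping groups. Among them, Mrpl3 lies close to the catalytic centre in bacterial ribosomes; it had 46.2 and 56.9 CPM in RPF and 55.7 and 49.4 CPM in total RNA. Of the 8 genes below 0, 7 have bacterial counterparts and Mrpl37 is specific to mitochondria. Bacterial counterparts also made up 29 of the 47 tested large and 16 of the 29 tested small subunit genes. Mrpl50 (0.00), Mrpl57 (0.04) and Mrpl18 (0.13) complete the 7 lowest of the large subunit, each with overlapping groups. Among the 7 lowest of the small subunit, Mrps11 (0.48, adjusted p = 0.044, edgeR) and Mrps23 (0.42, adjusted p = 0.0464, edgeR) still passed as higher, while Mrps25 (0.46, adjusted p = 0.0684, edgeR) did not. The sign of the ratio changed with the scaling in Mrpl18, Mrpl57, Mrpl50, Mrpl34, Mrpl12 and Mrps23 of the named genes.

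**Figure D3:**
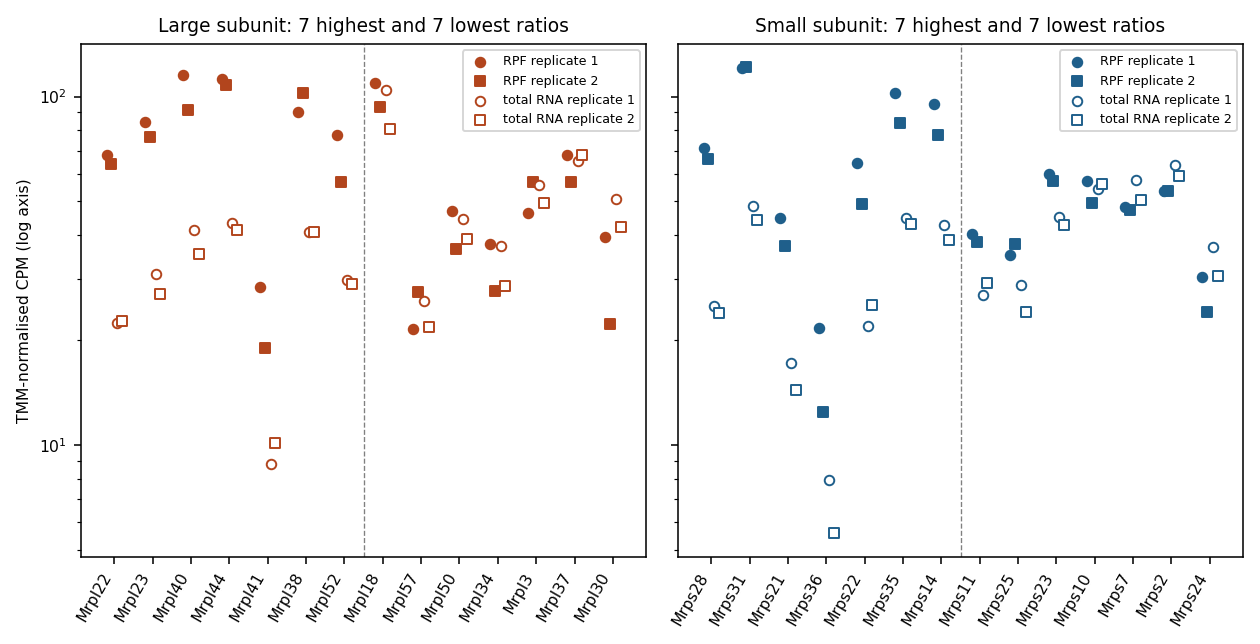
TMM-normalised CPM (y axis, log scale) in each library for the 7 highest and 7 lowest ratios of the large (left) and small (right) subunit; filled marks are RPF, open marks total RNA, circles replicate 1 and squares replicate 2, and the dashed line parts highest from lowest. In all 14 genes left of the dashed lines the filled marks lie above the open ones, and in Mrpl30, Mrps7, Mrps2 and Mrps24 they lie below.

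The letters around the start codon are given for the highest and lowest gene of each subunit and for the 4 genes that lack a purine at the third base before the start codon, a base that bears on how readily the cytosolic ribosome starts. Each window runs 5′ to 3′ over 13 bases of the main transcript in GENCODE M21 (GRCm38), with the third base before the start, the start codon and the base after it in capitals.
Mrpl22: gggctcAgcATGG
Mrps28: gcaggcGtcATGG
Mrpl30: cccaccCccATGG
Mrps24: cggcccAagATGG
Mrpl3: gccactTccATGC
Mrpl14: tgggatCccATGG
Mrpl2: ggccggCccATGG
A purine stood at that place in 72 of the 76 genes (94.7%), against 86.6% of 12422 tested protein-coding genes, and in 29 of 29 small subunit genes. G followed the start codon in 54 of the 76 (71.1%), against 53.4% of the protein-coding genes. The 4 genes without the purine were all of the large subunit. They included the lowest ratio (Mrpl30) and one near 0 (Mrpl3), but also Mrpl14 at 1.05 and Mrpl2 at 0.83, both of which passed as higher.

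Leaders, the stretches before the start codon, were short. Their median length was 94.5 bases in the 76 genes, against 183.5 bases in the tested protein-coding genes, and it was 111 bases in large and 60 bases in small subunit genes. An ATG upstream of the start codon was present in the leader of 28 of the 76 genes (36.8%), against 52.1% of protein-coding genes. The 28 genes with one had a median ratio of 0.60 and 17 of them were higher; the 48 without had a median of 0.79 and 34 of them were higher. Among all tested protein-coding genes the same medians were -0.18 and 0.22. Mrpl30 had a leader of 215 bases with 3 upstream ATGs and Mrps7 one of 236 bases with 2, while Mrps24 and Mrpl22, the lowest of one subunit and the highest of the other, each had a leader of 25 bases with none. Mrpl40 had a leader of 339 bases with 1 upstream ATG and a ratio of 1.43.

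The median ratio was 0.67 in large and 0.78 in small subunit genes, a difference of -0.11. The 4 pairings of an RPF with a total RNA library gave differences of -0.15, -0.09, -0.11 and -0.09, which share libraries. The SD between replicates was 0.022 for the difference, 0.227 for the large median and 0.230 for the small median. With no label that pairs libraries, the SD of the difference does not measure its precision. Within a subunit, the middle 50% of the genes spanned 0.67 in the large and 0.57 in the small subunit. The share of genes higher was 57.4% in the large subunit and 82.8% in the small, and both RPF libraries lay above both total RNA libraries in 39 of 47 large and 25 of 29 small subunit genes. Summed over genes, the large subunit had 3490 and 3073 CPM in RPF and 2201 and 1995 CPM in total RNA. The small subunit had 1995 and 1771 CPM in RPF and 1160 and 1068 CPM in total RNA. The large subunit thus had 1.75 and 1.73 times the small subunit's sum in RPF, against 1.90 and 1.87 times in total RNA; with 2 libraries a side an exact permutation test cannot give a two-sided p under 0.333. After a correction for coding share and length of the main transcript, an alternative added after seeing the data, the difference between the medians was 0.03, of the opposite sign.

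**Figure D4:**
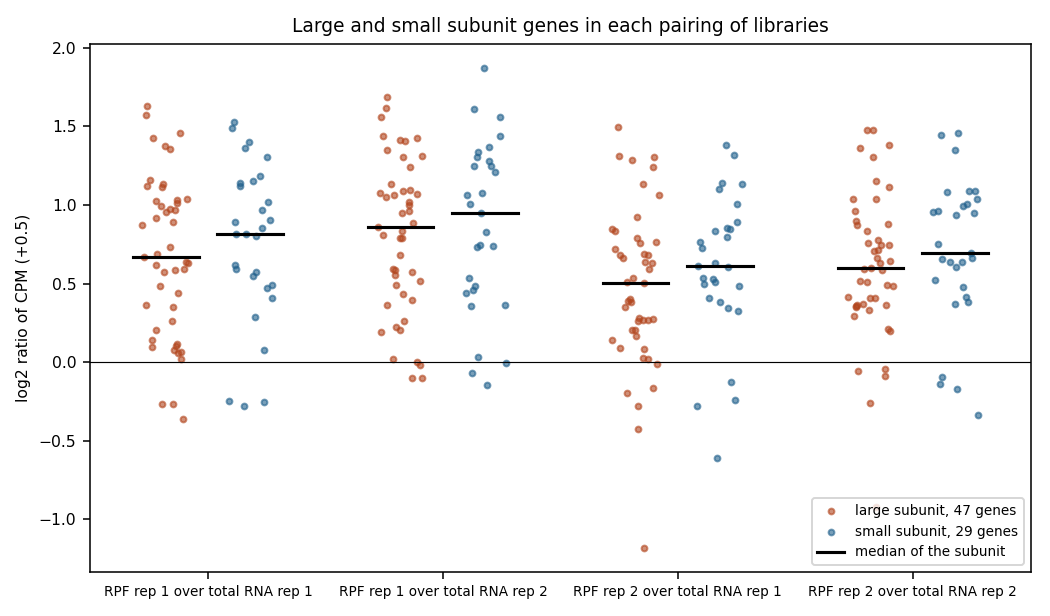
Log2 ratio of CPM, with 0.5 added to each value (y axis), of every tested gene in each of the 4 pairings of an RPF with a total RNA library (x axis), large subunit left and small subunit right within a pairing; points are genes and black bars medians. The small subunit median is above the large one in all 4 pairings, by 0.09 to 0.15.

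By origin and by name, 16 of 29 tested large subunit genes with a bacterial counterpart were higher (median 0.67), and so were 11 of 18 that are specific to mitochondria (median 0.67). Of the Mrps genes, 12 of 16 with a bacterial counterpart were higher (median 0.69), and 12 of 13 classed as specific to mitochondria (median 0.89). The 13 include Mrps36, and also Mrps18a and Mrps18b, which share an ancestor with Mrps18c, a gene classed with the bacterial counterparts. The counts were not recomputed with Mrps18a and Mrps18b classed as bacterial counterparts. A split with Mrps36 left out and Mrps18a placed in the large subunit is given below. The one of these 13 that did not pass was Mrps25, with a ratio of 0.46. Under each of the 4 corrections for gene structure its ratio was 0.94 to 1.25 and passed as higher (adjusted p between 0.00293 and 0.00599, edgeR). Calls of other genes were lost, however. With coding share and length of the main transcript corrected, 7 of the 13 were higher, against 16.8% of all corrected genes. So were 6 of the 16 Mrps genes with a bacterial counterpart. In the large subunit, 10 of the 18 specific genes and 11 of the 29 with a counterpart were higher. The names Mrpl and Mrps do not always give the subunit. In solved structures the proteins of Mrps30 (ratio 1.05, adjusted p = 0.00253, edgeR) and Mrps18a (0.89, adjusted p = 0.0043, edgeR) lie in the large subunit. Placed by structure, with Mrps36 left out, 29 of 49 large and 21 of 26 small subunit genes were higher, with medians of 0.67 and 0.78. By origin within that placement, 13 of 20 specific large subunit genes were higher (median 0.83), with Mrps18a among the 20. So were 9 of 10 specific small subunit genes (median 0.79), with Mrps18b among the 10. The counts with a bacterial counterpart were the same as by name. The 3 Mrps18 genes descend from one ancestor; Mrps18c, closest to the bacterial protein, had 51.5 and 44.0 CPM in RPF and 25.2 and 20.5 CPM in total RNA (ratio 1.06). Mrps18b had 147 and 98.8 CPM in RPF and 78.9 and 63.4 CPM in total RNA (ratio 0.79), and Mrps18a 54.2 and 62.0 CPM in RPF and 30.5 and 32.1 CPM in total RNA. All 3 passed as higher.

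Ribosomal proteins are needed in set proportions, so levels per length were set side by side: RPF per kilobase of coding sequence and total RNA per kilobase of main transcript, both in CPM. The SD of the log2 level over the 76 genes was 0.68 and 0.67 for RPF and 1.02 and 1.01 for total RNA. Divided by the same coding length, total RNA had an SD of 0.74 and 0.70. With no length the SDs were 0.79 and 0.83 in RPF and 0.83 and 0.82 in total RNA. The gap thus shrank with the same length for both, where RPF stayed narrower, and with no length the values overlapped. Mrpl18, whose bacterial counterpart binds a small ribosomal RNA, had the highest total RNA per length, at 85.7 and 66.2 CPM per kilobase, with 201 and 172 CPM per kilobase of coding sequence in RPF. Mrpl28 had 139 and 155 CPM per kilobase in RPF and 74.3 and 71.8 in total RNA. Mrpl52 had 212 and 155 CPM per kilobase in RPF and 71.0 and 69.1 in total RNA. Mrpl28 (ratio 0.55, adjusted p = 0.0166, edgeR) and Mrpl52 passed as higher. Mrpl18 did not (adjusted p = 0.58, edgeR). Mrpl12 forms the stalk, where it is present in several copies while most proteins are present once. It had 128 and 112 CPM per kilobase in RPF and 51.1 and 39.0 in total RNA. Its ratio of 0.30 did not pass (adjusted p = 0.206, edgeR). The median of the large subunit was 103 and 92.3 CPM per kilobase in RPF and 32.1 and 30.3 in total RNA.

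RPF come mostly from coding sequence and total RNA from the whole transcript, and among the mitochondrial ribosomal protein genes the ratio was higher where more of the transcript was coding. The coding share of the main transcript had a median of 46.1% in the mitochondrial ribosomal protein genes and 53.1% in tested protein-coding genes. Spearman's rho between coding share and ratio was 0.36 over the 76 genes and 0.27 over protein-coding genes, given as descriptions of genes that share the same libraries. In the 25 genes with the lowest share (7.17% to 34.3%) the median ratio was 0.55 and 14 were higher. In the middle 25 the median was 0.61 and 14 were higher, and in the 26 with the highest share (59.1% to 90.2%) the median was 0.97 and 23 were higher. With a loess correction for coding share of the main transcript 54 genes were higher, against 2427 of all 12643 corrected genes. Of the 51 genes higher before, 45 kept the call. With transcript length also corrected, 34 were higher and 4 lower, with a median of 0.47. Of all 12643 corrected genes, 16.8% were then higher and 1931 genes were lower. The 4 lower genes were Mrpl30 (-1.08), Mrps24 (-0.79), Mrps10 (-0.61) and Mrpl37 (-0.58), with adjusted p between 0.0178 and 0.0226 (edgeR). Of the 51 genes higher before, 27 kept the call under that correction. Among the named genes, the call was lost in Mrpl41 (0.76), Mrpl28 (-0.059), Mrps36 (0.84), Mrps18a (0.26), Mrps18b (0.19), Mrps18c (0.42), Mrps11 (-0.022) and Mrps23 (0.15), with adjusted p from 0.0625 to 0.927 (edgeR). Both corrections on the main transcript were added after seeing the data.

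**Figure D5:**
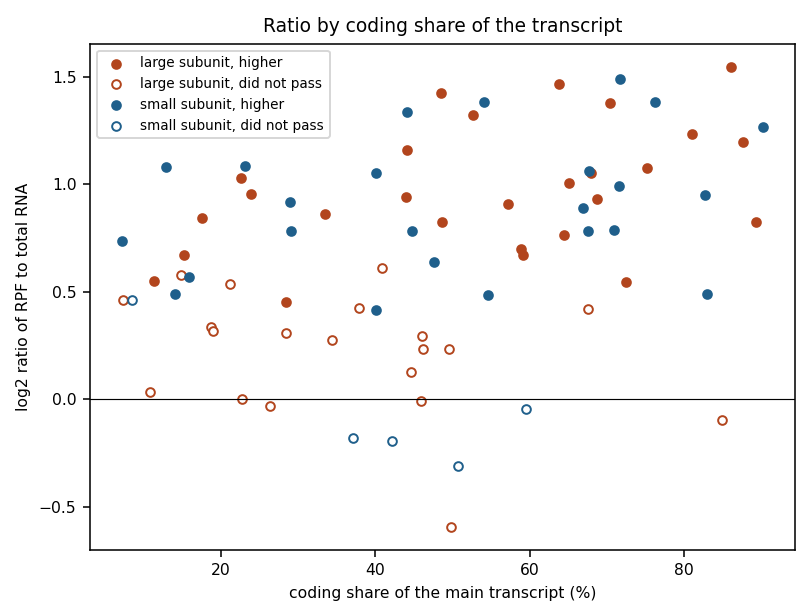
Log2 ratio of RPF to total RNA (y axis) against the coding share of the main transcript in percent (x axis) for the 76 tested genes; filled points passed as higher, open points did not. Ratios are higher at high coding share (median 0.97 in the 26 genes with the highest share, against 0.55 in the 25 with the lowest), with wide scatter.

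Across the 17 alternative settings, 17 of the 51 higher genes kept the call in every one, 9 of them of the large subunit (Mrpl13, Mrpl22, Mrpl23, Mrpl38, Mrpl39, Mrpl40, Mrpl44, Mrpl47 and Mrpl52) and 8 of the small (Mrps5, Mrps14, Mrps21, Mrps22, Mrps28, Mrps30, Mrps31 and Mrps35). Leaving out each library in turn, 33 kept it each time. How many of all 2835 higher genes kept the call in these ways is not given here, so the counts cannot be set against a background. Near the threshold lay Mrpl36 (0.86, adjusted p = 0.0496, edgeR) just inside and Mrpl45 (0.42, adjusted p = 0.0505, edgeR) just outside.

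Reads that could fall on more than one gene touched some members. Mrpl53 had 0 counts in both RPF libraries and 0 and 1 counts in total RNA. In GENCODE M21 100% of its coding bases lie under exons of another gene and 84.8% of its 28-base stretches recur in Gm42688, and whether its reads were set aside as ambiguous was not tested. Ambiguous reads made up 4.96% and 8.58% of tallied RPF reads, against 0.755% and 0.719% of tallied reads of total RNA. Mrps34 (77.8% of exon bases and 51.1% of coding bases under another gene) and Mrps25 (69.8% and 0%) are uncertain for that reason. By coding bases under another gene, so are Mrpl43 (72.7%), Mrps6 (48.9%), Mrps18b (45.8%), Mrps30 (43.9%), Mrpl24 (40.9%), Mrps27 (36.9%) and Mrps18c (33.0%). Of the 28-base stretches of Mrpl22, 31.3% recur in Gm6997. The 48 tested genes with under 10% of such stretches shared had a median ratio of 0.65 with 32 higher, and the 28 others a median of 0.79 with 19 higher. Counted under their own names, the pseudogene Mrpl23-ps1 had 0 and 0 counts in RPF and 5 and 4 in total RNA, and Mrpl48-ps had 0 and 2 counts in RPF and 0 and 3 in total RNA. Mrps36-ps1 and Mrps36-ps2 had none in any library.

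Promoters were searched for letters known from genes of mitochondrial proteins, which other genes hold too. RefSeq promoter windows of 300 bases (GRCm38.p6) were found for 69 of the 78 genes. The ETS motif CCGGAAG, searched on both strands, was present in 25 of the 69 (36.2%), against 18.3% of 9995 tested protein-coding genes and 9.12% of 27025 promoters; in 56 cytosolic ribosomal protein genes it was present in 22 (39.3%). The NRF1 motif GCGCATGCG was present in 7 (10.1%), against 3.86% and 1.81%. The YY1 motif AAGATGGCG was present in 8 (11.6%), against 3.3% and 1.49%, and at least one of the 3 motifs, none of which contains another, in 35 (50.7%), against 23.8% and 11.8%. Cytosolic ribosomal protein genes held at least one in 27 of 56 (48.2%), close to the share in mitochondrial ones. The plain motif CCAAT was as frequent as elsewhere (39.1%, against 39.0% of tested protein-coding genes). A start on C followed by 4 pyrimidines, as in mRNAs with a terminal oligopyrimidine tract, was present in none of the 69. It was present in 13 of 56 cytosolic ribosomal protein genes (23.2%) and in 2.42% of tested protein-coding genes. Only the first start listed for each gene was read, at its exact base. A start at another base would be missed, so absence of such starts was not shown. The windows of the highest and lowest gene of each subunit for which one was found are shown, 5′ to 3′ along the gene, with motif letters in capitals. They are Mrpl22 at chr11:58171414-58171713 (plus strand), Mrpl30 at chr1:37890227-37890526 (plus strand), Mrps31 at chr8:22411090-22411389 (plus strand) and Mrps24 at chr11:5707652-5707951 (minus strand).
Mrpl22: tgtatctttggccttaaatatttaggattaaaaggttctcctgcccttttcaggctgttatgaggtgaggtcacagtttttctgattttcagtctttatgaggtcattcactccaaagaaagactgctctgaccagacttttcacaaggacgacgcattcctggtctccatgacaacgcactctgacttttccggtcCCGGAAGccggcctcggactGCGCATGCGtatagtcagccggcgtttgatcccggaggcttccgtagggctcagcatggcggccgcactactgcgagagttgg
Mrpl30: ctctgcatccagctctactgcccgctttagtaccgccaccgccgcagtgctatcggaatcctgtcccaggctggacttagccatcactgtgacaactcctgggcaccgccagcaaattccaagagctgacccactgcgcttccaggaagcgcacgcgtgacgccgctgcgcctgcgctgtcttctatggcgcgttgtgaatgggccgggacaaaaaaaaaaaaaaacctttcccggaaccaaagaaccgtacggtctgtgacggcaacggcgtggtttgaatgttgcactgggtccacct
Mrps31: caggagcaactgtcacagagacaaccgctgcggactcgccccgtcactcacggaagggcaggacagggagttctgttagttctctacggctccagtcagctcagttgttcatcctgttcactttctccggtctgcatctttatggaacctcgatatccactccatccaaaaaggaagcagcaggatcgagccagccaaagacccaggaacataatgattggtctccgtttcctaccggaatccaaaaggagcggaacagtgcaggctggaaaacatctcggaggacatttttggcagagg
Mrps24: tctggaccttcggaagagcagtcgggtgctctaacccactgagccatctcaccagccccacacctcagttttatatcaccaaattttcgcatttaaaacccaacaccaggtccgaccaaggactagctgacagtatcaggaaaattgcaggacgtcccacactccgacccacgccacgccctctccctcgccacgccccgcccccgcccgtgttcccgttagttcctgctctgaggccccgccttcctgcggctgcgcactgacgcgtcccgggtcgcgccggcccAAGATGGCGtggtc
Mrpl22 held the ETS and NRF1 letters upstream of its start, beginning at bases -53 and -33. Mrps24 held the YY1 letters beginning at base 37, where they run across its start codon (the window cggcccAagATGG above lies within this promoter window). Mrpl30 and Mrps31 held none of the 3 motifs. These are matches of letters, not binding sites.

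Other genes of mitochondrial translation were more mixed. Of 49 listed genes, 48 were tested: 20 were higher, 4 were lower and 24 did not pass, with a median ratio of 0.53. The count of higher genes was 11 without total RNA replicate 1 and 10 without total RNA replicate 2. Among mitoribosomal proteins without Mrp names, 4 of 5 were higher. Gadd45gip1, a large subunit protein at the tunnel exit, had 99.4 and 90.7 CPM in RPF and 44.1 and 44.3 CPM in total RNA (ratio 1.11 ± 0.13), and Ptcd3 of the small subunit (ratio 0.30) did not pass. Of 15 tested translation factors, 7 were higher and 1 was lower, and Pdf was below the filter. Slirp, which binds mitochondrial mRNAs with Lrpprc, had 88.6 and 87.0 CPM in RPF and 38.4 and 31.6 CPM in total RNA, a ratio of 1.33 ± 0.15 (adjusted p = 0.00119, edgeR). Guf1, a GTPase related to bacterial elongation factor 4, had 13.4 and 17.1 CPM in RPF and 36.8 and 28.6 CPM in total RNA, and its ratio of -1.10 ± 0.22 was lower (adjusted p = 0.00768, edgeR). Of 28 factors of assembly and rRNA modification, 9 were higher and 3 lower. Mpv17l2, an assembly factor of the large subunit, had 45.5 and 42.4 CPM in RPF and 17.8 and 17.9 CPM in total RNA (ratio 1.30 ± 0.16), and Mettl15, a methyltransferase of the small subunit's RNA, had 5.56 and 6.27 CPM in RPF and 2.55 and 2.37 CPM in total RNA (ratio 1.26 ± 0.33). Rcc1l, an assembly factor, was lower at 25.5 and 32.5 CPM in RPF, against 53.2 and 49.2 CPM in total RNA (ratio -0.82 ± 0.17). Ybey, an endoribonuclease, was lower at -0.77 ± 0.25 (adjusted p = 0.0474, edgeR), and Trub2, a pseudouridine synthase, at -0.56 ± 0.14 (adjusted p = 0.0191, edgeR). With coding share and length of the main transcript corrected, these calls ended for Ybey (-0.09, adjusted p = 0.808, edgeR), Trub2 (-0.24, adjusted p = 0.231, edgeR) and Mettl15 (0.93, adjusted p = 0.0725, edgeR), and Mpv17l2 was higher at 0.71; Guf1 (-1.09) and Rcc1l (-0.99) were lower under it too.

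Beside other gene families, the mitochondrial ribosomal protein genes lay between the cytosolic ribosome and the respiratory chain. Of 77 cytosolic ribosomal protein genes, 23 were higher and 6 lower, with a median ratio of 0.31. Of 77 tested nuclear-encoded respiratory chain genes, 70 were higher, with a median of 1.06. Median coding shares of the main transcript were 46.1% in mitochondrial ribosomal protein genes, 58.5% in cytosolic ribosomal protein genes and 53.1% in respiratory chain genes. With coding share and length of the main transcript corrected, the 3 medians were 0.47, -0.07 and 0.57, so that the order was kept. The differences between families were not tested.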

How the data were processed

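The values deposited by the authors are unnormalised read counts, 1 whole number for each gene, with closing tallies in the form that HTSeq writes. The tallies were left out of library sizes; reads on no feature were 5.95% and 6.66% of the RPF tally and 23.4% and 26.2% of the total RNA tally, and reads aligned more than once 21.0% and 20.6% in RPF and 16.6% and 16.5% in total RNA. Per the submitters' processing notes, Bowtie 1.2.3, TopHat2 2.1.1, HTSeq 0.11.2, edgeR 3.26.8 and the build mm9 were used. The sources used here do not give the annotation release, counted feature, strand setting or joining of sequencing runs, so a gene and its antisense partner cannot be told apart. Symbols and transcripts came from GENCODE M21 (GRCm38) by identifier, which named 32621 of 37311 identifiers (87.4%); promoters came from RefSeq. The main transcript is the highest-ranked APPRIS principal isoform, then the one with the longest coding sequence, and was not chosen by expression in these cells.

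RPF and total RNA libraries were compared in edgeR 4.0.16 (R 4.3.3) with a quasi-likelihood fit whose only term was RPF or total RNA, TMM scaling, filterByExpr (minimum count 10, minimum total 15), two-sided tests and Benjamini-Hochberg adjustment over 13809 genes at 0.05. The SE is the ratio's size over the square root of F. The procedure was checked on simulated counts with 200 genes changed, a single fixed spread and independent libraries. That setting is simpler than these data, so the check does not vouch for the calls here. DESeq2 1.42.0, limma 3.58.1 (voom), other scalings and filters, a replicate block, leaving out each library, and corrections for gene structure were alternatives. The p-values rest on the spread between 2 samples a group, drawn for each gene towards the spread over all tested genes. They do not measure a gene's own spread alone. Genes named are Eif4a3, the 7 highest and 7 lowest ratios of each subunit, members called lower or not tested, the 3 with most total RNA per length, Mrps18a, Mrps18b, Mrps18c, Mrps30, Mrps36 and Mrpl12, and the extremes of the other lists; others were named after their values were seen. The members and lists were chosen with earlier results of these data known.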

Additional observations from a re-analysis of the deposited data

How the results depend on the processing

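The direction of the large and small subunit medians was kept in every setting run. With the library size as the only scaling, all genes gave 1223 higher and 4961 lower, large subunit genes 14 higher, small subunit genes 10 higher, both subunits 6 lower (Mrps24, Mrpl30, Mrpl37, Mrps10, Mrps2 and Mrps7) and other mitochondrial translation genes 7 higher, with medians of 0.24 (large) and 0.35 (small). Tested against a 1.5-fold change (glmTreat), the counts were 1155 higher and 1549 lower for all genes, and 12 large, 10 small and 5 other mitochondrial translation genes higher. Leaving out each library in turn gave 1720 to 3341 higher and 1857 to 3440 lower genes, 18 to 32 large and 16 to 23 small subunit genes higher, 0 to 1 of both subunits lower, and 10 to 23 other mitochondrial translation genes higher. The medians then ran from 0.52 to 0.78 (large) and from 0.66 to 0.95 (small), and the large minus small difference from -0.19 to -0.13. That difference was -0.14 with no count filter, -0.21 with coding share and exon length corrected, -0.049 for coding share of the main transcript, and 0.030, reversed, for its coding share and length. Correction for coding share and exon length left 2 members lower and 12 other mitochondrial translation genes higher. Correction for coding share and length of the main transcript left 1931 genes lower in all, 13 small subunit genes higher with a median of 0.44, 4 members lower, and 12 other mitochondrial translation genes higher. The same-numbered libraries deviated together (r = 0.62 over 9021 genes), but with 2 pairs and no label that pairs them this stayed an alternative. With the replicate block, 4257 genes were higher and 2 members were lower (Mrpl30 and Mrps24), and all 51 higher members kept the call. The cause of these changes was not tested.

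Some ratios near 0 changed sign. With the library size only these were Mrpl18 (-0.30), Mrpl57 (-0.39), Mrpl50 (-0.44), Mrps23 (-0.016) and Mrpl12 (-0.14). With no count filter Mrpl57 was -0.0056 and Mrpl50 -0.040, and among genes of 10 CPM or more on average they were -0.052 and -0.087. Mrpl50 was -0.0013 in voom, -0.0030 with the replicate block and -0.025 among protein-coding genes only. Mrpl34 was 0.0173 with DESeq2 size factors and 0.0169 in DESeq2. After correction for coding share, Mrpl3 was 0.26, Mrpl37 0.0047 and Mrps10 0.37. With exon length as well, Mrpl18 was -0.34, Mrpl50 -0.12, Mrpl3 0.32, Mrpl37 0.042, Mrps10 0.41, Mrpl28 -0.062 and Mrpl12 -0.15. For the main transcript's coding share Mrpl3 was 0.35. With its length as well, Mrpl18 was -0.22, Mrpl3 0.39, Mrps11 -0.022, Mrpl28 -0.059 and Mrpl12 -0.042. Without one library, Mrpl18 ran from -0.047 to 0.32, Mrpl57 from -0.14 to 0.22, Mrpl50 from -0.18 to 0.18, Mrpl34 from -0.24 to 0.21, Mrpl3 from -0.17 to 0.13, Mrpl37 from -0.22 to 0.045 and Mrps10 from -0.14 to 0.070.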
